A study of Mus musculus with 12 samples.

Results

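The transcripts of 7 genes were followed in mouse embryonic fibroblasts (MEFs) with and without RTF2, a replisome protein. They encode DDI2, NRF1 (gene symbol Nfe2l1), NGLY1 and the proteasome shuttle factors RAD23B, UBQLN1, UBQLN2 and UBQLN4. They were taken by gene symbol from a table of read counts, as 7 of its 24100 genes, and all 7 passed the filter on low counts that left 14263 genes tested.

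MEFs of 2 lines, isolated from different mothers, were compared as WT (Rtf2+/+) and RTF2-deficient (Rtf2-/lox) cells, with littermates as controls. Every group, WT included, was transduced with Cre and harvested after 72 hrs, and the methods describe the cells as immortalized with SV40 large T. Each line and genotype gave 3 libraries, which the study calls technical replicates, so that p-values measure the spread between libraries of 1 cell line more than that between animals. Each line and genotype is 1 MEF culture, and any difference between the cultures cannot be told apart from the genotype within a line.

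Most proteins reach the proteasome after being tagged with ubiquitin, and shuttle factors carry many of them there. RAD23B and the ubiquilins bind ubiquitin chains with one end and the proteasome with the other. DDI2 is a related protein that also holds an aspartic protease domain, and with its relative DDI1 it removes RTF2 from stalled replication forks. The best known substrate of the DDI2 protease is NRF1, a transcription factor made in the membrane of the endoplasmic reticulum. NGLY1 strips the sugars from NRF1 after it leaves that membrane, DDI2 cuts it, and the active form binds antioxidant response elements with a small MAF partner and raises the transcription of proteasome genes when proteasome activity is short.

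The element that NRF1 and its MAF partners bind was searched for as TGACNNNGC, where N is any base, on both strands of the stretch from 250 bases before to 50 bases after each RefSeq transcription start (GRCm38). At least 1 match was found for 14% of the 27025 genes with such a window. Of the members, 6 matched a window and 0 of these 6 held the letters, while 6 of 27 genes of the proteasome core and regulatory particle and 3 of 3 small MAF genes held them. So did 5 of 11 interferon-stimulated antiviral genes, 3 of 13 genes that act on NRF1 and 2 of 5 ubiquitin receptors and deubiquitinases of the proteasome. Of the genes whose proteins work with shuttle factors, 0 of 9 did. A match is a match of letters, and its absence says only that they are not in this window. The stretches below, in the direction of the gene with the matched letters in capitals, are shown because they belong to genes downstream of NRF1 or to its partners. Psmb5 and Psmb6 encode catalytic proteasome subunits, Vcp the segregase that pulls NRF1 from the membrane, and Maff and Mafg small MAF partners. Their positions are chr14:54618023-54618052 (minus strand) for Psmb5, chr11:70525327-70525356 (plus) for Psmb6, chr4:43000602-43000631 (minus) for Vcp, chr15:79346499-79346528 (plus) for Maff and chr11:120633750-120633779 (minus) for Mafg.
Psmb5: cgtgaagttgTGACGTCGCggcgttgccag
Psmb6: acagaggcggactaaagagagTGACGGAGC
Vcp: tgcggccaatTGACGTGGCgttactaggcg
Maff: gggcgtctcaTGACTCTGCcactggaaaga
Mafg: ctctgcaggaGCACGGTCAacccggcgagc
In Mafg the match lies on the opposite strand, so the capitals read as its reverse complement. Between genotypes, Psmb5 (log2 fold change -0.007), Psmb6 (-0.05) and Vcp (0.19) were not called, with edgeR adjusted p from 0.256 to 0.963.

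The libraries held 39360167 to 44695002 counts. Rtf2 itself lay at 44.8 to 57.8 CPM (counts scaled to library size with edgeR's TMM factors) in the 6 WT libraries and at 5.44 to 6.66 in the 6 RTF2-deficient libraries. Fibroblast markers summed to 19991 to 32023 CPM in every library, and marker lists of epithelial, endothelial, leukocyte and muscle cells to at most 21.6 CPM. The neural list reached 133 CPM, mostly through Map2 and Tubb3, with Sox2 at 1.68 to 10.9 CPM in every library and Sox10 and Dcx at most 0.14 CPM. The WT line 2 libraries held Y-linked transcripts (Ddx3y at 91.8 CPM or more) and almost no Xist, whereas the other 9 libraries held Xist at 103 CPM or more, so the WT and RTF2-deficient MEFs of line 2 differ in sex-linked transcripts beside the genotype. In bulk RNA, fewer cells with a transcript and less of it per cell cannot be told apart.

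All members were expressed in MEFs, over a wide span. On a scale of reads per kilobase of exon, on the CPM (RPKM, union of annotated exons), the mean WT level was 76.9 for Rad23b, 55.2 for Nfe2l1, 47.8 for Ubqln1, 26.0 for Ubqln2, 22.9 for Ubqln4, 4.31 for Ddi2 and 3.25 for Ngly1. Over all 12 libraries the ranges of neighbours in this order overlapped, except those of Ubqln1 and Ubqln2, of Ubqln4 and Ddi2, and of Ddi2 and Ngly1. With the length of the longest transcript in place of the exon union, Ubqln4 (28.5 RPKM) came above Ubqln2 (26.0) and Ngly1 (7.45) above Ddi2 (4.31), so neither order within these pairs is settled. Among the 3 ubiquilins, Ubqln1 gave 46.0% to 51.7% of the summed RPKM in every library, Ubqln2 24.96% to 29.99% and Ubqln4 22.4% to 24.5%.

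The first question was whether any member differed between the genotypes across both lines. With the line as a term, no member was called by the quasi-likelihood test of edgeR at a Benjamini-Hochberg adjusted p under 0.05, against 13.2% of all tested genes (8.18% lower and 4.98% higher). The lowest adjusted p among the members was 0.102, for Ngly1, and 3 members had an unadjusted p under 0.05 (Ngly1 0.0204, Ubqln2 0.0303 and Ubqln1 0.0345), as did 28.5% of all tested genes. The fitted difference was above 0 for 6 of 7 members, with a median log2 fold change of 0.12 against 0.002 over all tested genes. Without regard to sign, the median size was 0.118 for the members and 0.150 over all genes, so the members' differences were not large among genes.

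**Figure D1:**
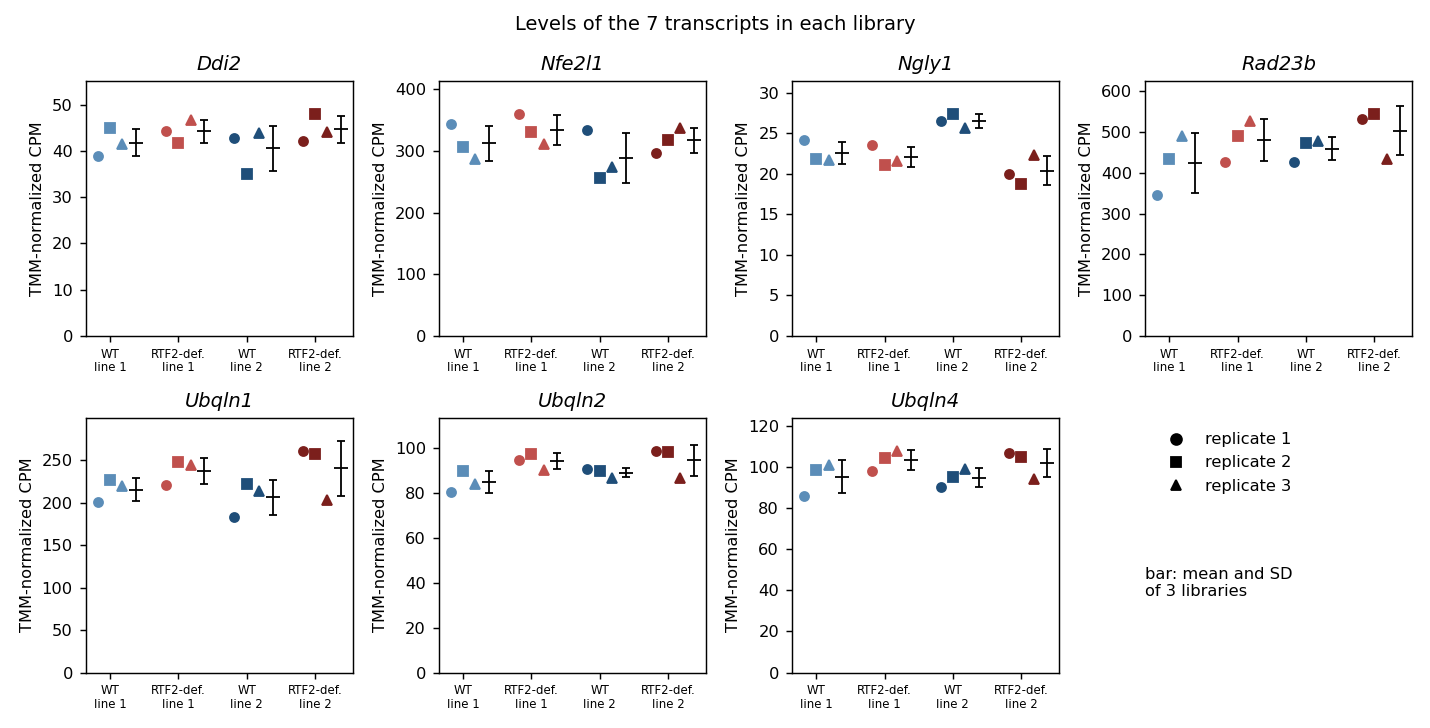
TMM-normalized CPM of the 7 transcripts (y axes from 0) in each of the 12 libraries, by line and genotype (x axis). Marker shapes give the replicate number and the bar beside each group its mean and SD (n = 3). The RTF2-deficient points lie within or close to the WT points for every gene, and the clearest gap is that of Ngly1 in line 2, at 18.8 to 22.4 CPM against 25.7 to 27.4.

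Ddi2 (Entrez 68817, chr4:141677549-141723419, minus strand, GRCm38), which encodes the protease and shuttle factor itself, was read at 38.98, 44.9 and 41.5 CPM in WT line 1 and at 44.3, 41.8 and 46.8 CPM in RTF2-deficient line 1. In line 2 it was read at 42.8, 34.99 and 43.9 CPM in WT and at 42.2, 48.0 and 44.1 CPM in RTF2-deficient MEFs. The groups overlapped in either line. The fitted log2 fold change was 0.11 (SE 0.067, 95% interval -0.03 to 0.26, adjusted p = 0.294 by edgeR). The exons of Rsc1a1, 1749 bases on the same strand, lie wholly inside a Ddi2 exon, and reads there cannot be assigned to one of the genes. Counts of Rsc1a1 lay between 149 and 501, and with them added to Ddi2 the log2 fold change was 0.07 (edgeR adjusted p = 0.394). With a correction for GC content and transcript length the sign turned, to -0.02 (edgeR adjusted p = 0.886). Ddi1, the relative of Ddi2, had 0 counts in all 12 libraries, which allows up to 3 counts per library by counting error alone.

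Nfe2l1 (Entrez 18023, chr11:96817414-96829968, minus strand), the NRF1 gene, was read at 344, 307 and 288 CPM in WT line 1 and at 360, 331 and 312 CPM in RTF2-deficient line 1. In line 2 the values were 334, 256 and 275 CPM in WT and 297, 318 and 337 CPM in RTF2-deficient MEFs. Both pairs of groups overlapped. Its log2 fold change was 0.12 (SE 0.074, 95% interval -0.04 to 0.28, edgeR adjusted p = 0.323). This value was not called in the fit as designed, but was called with GC content and length corrected (0.20, edgeR adjusted p = 0.0298) and with an interferon score as a term, described below.

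Of the NRF1 relatives, Nfe2l2, which encodes NRF2, the oxidative stress factor, lay at 105 to 130 CPM with a log2 fold change of 0.01 (edgeR adjusted p = 0.923). Nfe2l3 lay at 0.39 to 0.66 CPM (log2 fold change -0.24, edgeR adjusted p = 0.386), and Nfe2, the blood cell member, at 0.14 CPM or less.

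Ngly1 (Entrez 59007, chr14:16249280-16311926, plus strand), which encodes the enzyme that removes N-linked sugars from NRF1, was the only member with a fitted difference below 0. It was read at 24.2, 21.8 and 21.7 CPM in WT line 1 and at 23.5, 21.1 and 21.7 CPM in RTF2-deficient line 1, where the groups overlapped and the log2 fold change was -0.03 (edgeR adjusted p = 0.933). In line 2 it was read at 26.5, 27.4 and 25.7 CPM in WT and at 20.02, 18.8 and 22.4 CPM in RTF2-deficient MEFs. All 3 RTF2-deficient libraries of line 2 lay below all 3 WT libraries, as at 29.5% of all tested genes in either direction. Ngly1 fell by 0.38 on the log2 scale in line 2 (SE 0.085, 95% interval -0.56 to -0.19, edgeR adjusted p = 0.0151), the single call among the 7 members there, against 12.5% of all genes in either direction and 7.03% lower.

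The line 2 call was kept in 10 of the 12 fits that leave out 1 library, at log2 fold changes from -0.43 to -0.31 over all 12, and in the 8 other alternatives run on it (highest edgeR adjusted p 0.0406, with the interferon score as a term). It was lost without RTF2-deficient line 2 replicate 1 (log2 fold change -0.36, edgeR adjusted p = 0.0648) and without replicate 2 of that group (-0.31, edgeR adjusted p = 0.0802). The difference between the lines was itself -0.35 (SE 0.120, edgeR adjusted p = 0.322), where 1.29% of all genes were called, so the effect was not shown to differ between lines. The 3 WT line 2 libraries were also above all WT line 1 libraries, by 0.23 on the log2 scale (edgeR adjusted p = 0.0985), with 14% of all genes called in that comparison and 30.2% not overlapping. WT line 2 is the group that differs in sex-linked transcripts and has the highest interferon score. Its leukocyte markers summed to 6.504 to 9.66 CPM, against 4.77 to 4.98 in RTF2-deficient line 2, mostly through Cd68, a lysosomal gene of macrophages, which was called lower in RTF2-deficient MEFs of line 2 (log2 fold change -1.07, edgeR adjusted p = 0.00809). Csf1r, the other tested leukocyte marker, was at 0.76 there and not called (edgeR adjusted p = 0.187). Over all libraries Csf1r lay at 0.608 to 1.83 CPM and Ptprc, Adgre1 and Tyrobp at most at 0.13 CPM. Muscle markers summed to 6.54 to 9.49 CPM in WT and 12.8 to 18.7 in RTF2-deficient line 2, and epithelial markers to 7.04 to 9.79 and 9.88 to 14.2 CPM. Of 10 fibroblast markers 2 were called lower in line 2, Twist1 and Prrx1 (both -0.48), with 5 of 10 above 0, a median of -0.01 and values from -1.03 to 0.51. Of 3 tested neural markers 1 was called lower, Sox2 (-1.51), and 1 was above 0, at 0.86, without a call. The part of these in the Ngly1 difference was not tested, except for the score, with which it was -0.30. A stretch of 21 exon bases of Ngly1 is shared with Oxsm on the opposite strand.

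**Figure D2:**
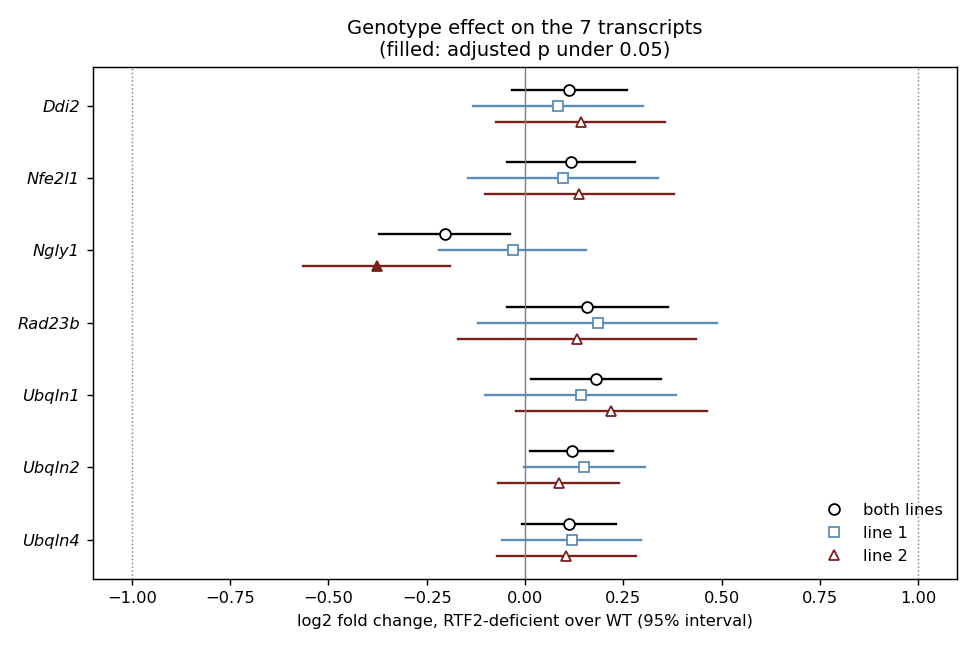
Log2 fold change of RTF2-deficient over WT MEFs (x axis) for each of the 7 transcripts (y axis), with 95% intervals, over both lines (circles), in line 1 (squares) and in line 2 (triangles). A filled symbol marks an edgeR adjusted p under 0.05, which only Ngly1 in line 2 reached, at -0.38, and dotted lines at -1 and 1 mark a change of 1 log2 unit.

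The shuttle factors were all fitted above 0. Rad23b (Entrez 19359, chr4:55350043-55392237, plus strand) was read at 345, 434 and 491 CPM in WT line 1, at 426, 489 and 528 CPM in RTF2-deficient line 1, at 426, 473 and 478 CPM in WT line 2 and at 532, 543 and 434 CPM in RTF2-deficient line 2. It had the widest spread within a group of the 7 (SD 73.9 CPM in WT line 1), and the groups overlapped in both lines. Its log2 fold change was 0.16 (SE 0.094, 95% interval -0.05 to 0.36, edgeR adjusted p = 0.288).

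Ubqln1 (Entrez 56085, chr13:58176156-58215653, minus strand), the most abundant ubiquilin transcript here, was read at 200.2, 226 and 219 CPM in WT line 1 and at 220.2, 248 and 244 CPM in RTF2-deficient line 1. In line 2 it was read at 183, 222 and 214 CPM in WT and at 261, 257 and 203 CPM in RTF2-deficient MEFs. The groups overlapped in both lines. Its log2 fold change of 0.18 (SE 0.076, 95% interval 0.02 to 0.35, edgeR adjusted p = 0.141) was the largest of the positive differences, and was called across both lines only without RTF2-deficient line 2 replicate 3 (0.24, edgeR adjusted p = 0.0490).

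Ubqln2 (Entrez 54609, chrX:153498227-153501570, plus strand), an X-linked gene with 1 exon whose human counterpart is mutated in some inherited motor neuron disease, was read at 80.4, 90.0 and 84.3 CPM in WT line 1 and at 94.9, 97.3 and 90.5 CPM in RTF2-deficient line 1. All 3 RTF2-deficient libraries of line 1 were above the WT libraries, Ubqln2 being the only member for which this held in line 1, where 21.1% of all genes did not overlap. In line 2 the values were 90.7, 89.8 and 86.9 CPM in WT and 98.8, 98.2 and 86.8 CPM in RTF2-deficient MEFs, and replicate 3 of the latter lay below the WT libraries. The log2 fold change was 0.12 (SE 0.048, 95% interval 0.01 to 0.22, edgeR adjusted p = 0.130). Without that replicate it was 0.16 and called (edgeR adjusted p = 0.0377). Between the WT lines, which differ in sex-linked transcripts, Ubqln2 differed by 0.07 on the log2 scale (SE 0.070, edgeR adjusted p = 0.567), and by -0.04 with GC content and length corrected.

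Ubqln4 (Entrez 94232, chr3:88553758-88569725, plus strand) was read at 86.0, 98.4 and 101 CPM in WT line 1, at 98.0, 104 and 108 CPM in RTF2-deficient line 1, at 90.1, 95.1 and 99.2 CPM in WT line 2 and at 107, 105 and 94.0 CPM in RTF2-deficient line 2. The groups overlapped in both lines. Its log2 fold change was 0.11 (SE 0.055, 95% interval -0.01 to 0.23, edgeR adjusted p = 0.201). With GC content and length corrected it was 0.25 (edgeR adjusted p = 0.0600), and 0.29 in line 2 (edgeR adjusted p = 0.129). Of the other ubiquilin genes, Ubqln5 and Ubqlnl had 0 counts.

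For single genes an exact two-sided permutation test within lines, over 400 arrangements of the libraries, gave p = 0.025 for Ngly1, 0.03 for Ubqln2, 0.05 for Ubqln1, 0.055 for Ubqln4, 0.115 for Ddi2, 0.14 for Nfe2l1 and 0.145 for Rad23b, unadjusted, where the smallest p that these arrangements allow is 0.005. The arrangements exchange libraries, while genotype is fixed for each culture, so these p-values do not measure the spread between cultures. No member had all 6 RTF2-deficient libraries on one side of all 6 WT libraries, as 5.97% of tested genes did, or was apart in the same direction in each of the lines, as 10% were.

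Within each line the same question gave 0 called members in line 1, where 3.2% of all genes were called. The members' log2 fold changes there ran from -0.03 for Ngly1 to 0.18 for Rad23b. With 1 library left out at a time, that of Rad23b ran from 0.07 to 0.30, without a call. Libraries of the same replicate number deviated together in line 1 and between the WT groups, and with the replicate number as a block, in the 9 libraries outside RTF2-deficient line 2, calls over all genes went from 358 to 1093 in line 1 while still 0 members were called. Within the 3 same-numbered pairs of line 1, the RTF2-deficient library was higher in 3 of 3 for Nfe2l1, Rad23b, Ubqln1, Ubqln2 and Ubqln4, lower in 3 of 3 for Ngly1 and higher in 2 of 3 for Ddi2, where 58.7% of all genes moved one way in 3 of 3 pairs. In line 2 the differences ran from -0.38 for Ngly1 to 0.22 for Ubqln1, whose adjusted p was 0.224 by edgeR. Without RTF2-deficient line 2 replicate 3 Ubqln1 was called higher in line 2 (0.34, edgeR adjusted p = 0.0430). None of the 7 was called for a difference between lines.

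The WT lines were compared to see how far the same transcripts differ between lines of 1 genotype. None of the 7 was called, where 14% of all genes were, with log2 differences, line 2 minus line 1, from -0.12 for Nfe2l1 to 0.23 for Ngly1. With 1 library left out at a time, these ran from -0.25 to -0.04 for Nfe2l1 and from 0.19 to 0.27 for Ngly1. With the replicate block the count over all genes went from 1783 to 3788, and Ngly1 was then called higher in line 2 (0.23, edgeR adjusted p = 0.0345). Between the RTF2-deficient lines the members differed by -0.12 for Ngly1 to 0.07 for Rad23b, with 0 called against 1.94% of all genes.

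Within groups, the library at one end of several members' values was also the one highest in another set of genes. The libraries differ in the level of interferon-stimulated genes, the antiviral genes that cells turn on together, scored here as the median log2 CPM of 16 genes. The score ran from 1.01 to 4.08 in WT line 1, 4.88 to 8.77 in WT line 2, 0.834 to 2.03 in RTF2-deficient line 1 and 1.48 to 7.30 in RTF2-deficient line 2. The highest library of each group was replicate 1 in WT line 1, WT line 2 and RTF2-deficient line 1, and replicate 3 in RTF2-deficient line 2. In each of these 4 libraries Rad23b, Ubqln1 and Ubqln4 were at the lowest level of their group and Nfe2l1 at the highest. The other 2 libraries of a group did not keep to the order of the score in every group for Rad23b, Ubqln4 and Nfe2l1. Of all tested genes, 15.7% were lowest and 15.4% highest in the same 4 libraries. Ngly1 was highest there in 3 of 4 groups, Ubqln2 lowest in 2 and Ddi2 lowest in 1.

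**Figure D3:**
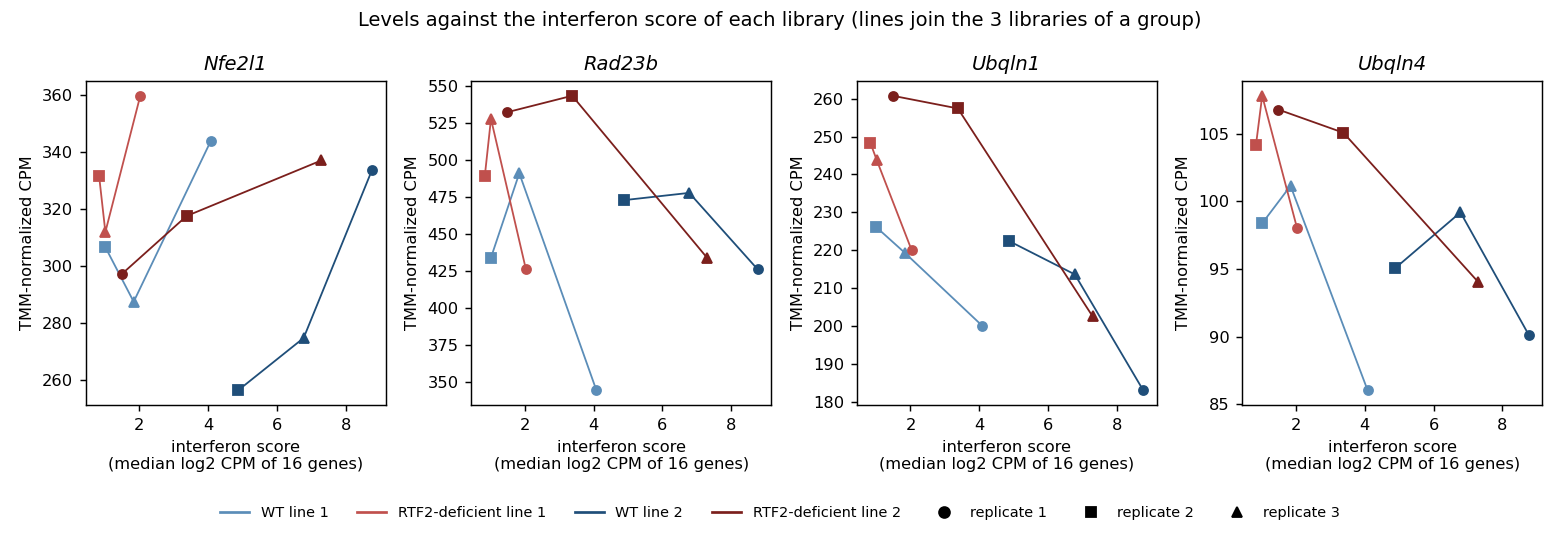
TMM-normalized CPM (y axes, not from 0) of Nfe2l1, Rad23b, Ubqln1 and Ubqln4 against the interferon score of each library (x axes, median log2 CPM of 16 genes), with lines that join the 3 libraries of a group. In all 4 groups the library with the highest score has the highest Nfe2l1 and the lowest Rad23b, Ubqln1 and Ubqln4.

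For Nfe2l1 the 4 libraries lay at 344, 334, 360 and 337 CPM, and the other 8 at 256 to 331 CPM. For Ubqln1 they lay at 200.2, 183, 220.2 and 203 CPM, and the other 8 at 214 to 261 CPM. With the score as a term in the fit, the genotype effect of Nfe2l1 was 0.21 in place of 0.12 and was called (edgeR adjusted p = 0.0482), also in line 2 (0.30, edgeR adjusted p = 0.0483). Those of Rad23b, Ubqln1 and Ubqln4 came to 0.04, 0.05 and 0.05, with edgeR adjusted p from 0.468 to 0.770, and that of Ngly1 to -0.13 (adjusted p = 0.277). Between the WT lines Nfe2l1 was then called lower in line 2 (-0.37, edgeR adjusted p = 0.0339). None of the 16 interferon-stimulated genes was called between genotypes, at a median log2 fold change of -1.60, and 7 of 16 were called higher in WT line 2 than in WT line 1, against 6.7% of all genes.

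The genes that act on NRF1 before it reaches the nucleus, 15 of them tested, had 0 calls between genotypes, where 13.2% of all genes were called, and a median log2 fold change of 0.04. The list holds the glycosylation, membrane extraction and degradation machinery that meets NRF1 at the endoplasmic reticulum and in the cytosol. Lowest in adjusted p were Derl1, a channel component of retrotranslocation (log2 fold change 0.17, edgeR adjusted p = 0.0524), Sel1l, the adaptor of the HRD1 ubiquitin ligase (0.21, adjusted p = 0.0880), the deubiquitinase gene Usp15 (0.15, adjusted p = 0.138) and Ogt, the O-GlcNAc transferase (-0.11, adjusted p = 0.187). The absence of calls depended on the processing. Once GC content and length were corrected, Derl1 (0.19, edgeR adjusted p = 0.0272) and Ogt (-0.17, adjusted p = 0.0226) were called, and Usp15 was at -0.04 without a call. Derl1 was called higher in line 2 (0.25, edgeR adjusted p = 0.0356), the single call among the 15 there, where 5.42% of all genes were called higher. In line 1 it was at 0.09 (edgeR adjusted p = 0.679), and WT line 2 was its low group, at 90.9 ± 3.42 CPM against 103 ± 6.16 in WT line 1, 109.8 ± 5.59 in RTF2-deficient line 1 and 108 ± 4.598 in RTF2-deficient line 2 (mean ± SD, n = 3).

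All 3 small MAF genes, whose promoter windows all held the element, were above 0, and 0 passed the test across both lines in the fit as designed, where 13.2% of all genes were called. The log2 fold changes were 0.22 for Maff (edgeR adjusted p = 0.109), 0.18 for Mafg (adjusted p = 0.117) and 0.14 for Mafk (adjusted p = 0.333). Maff was called higher once GC content and length were corrected (0.41, edgeR adjusted p = 0.0198). Mafg (0.27, adjusted p = 0.0664) and Mafk (0.29, adjusted p = 0.0601) were then still not called. In line 2 alone Maff (0.42, edgeR adjusted p = 0.0135) and Mafg (0.32, adjusted p = 0.0430) rose, where 5.42% of all genes were called higher, while in line 1 they were at 0.03 and 0.05, and Mafk at 0.25, with no call. The difference between the lines was not called for Maff (edgeR adjusted p = 0.282) or Mafg (adjusted p = 0.641). WT line 2 was the low group for both genes. Maff lay at 45.4 ± 3.55 CPM in WT line 1, 30.03 ± 3.12 in WT line 2, 46.3 ± 2.74 in RTF2-deficient line 1 and 40.2 ± 2.12 in RTF2-deficient line 2 (mean ± SD, n = 3). It was called lower in WT line 2 than in WT line 1 (-0.60, adjusted p = 0.00160 by edgeR), as 1 of the 3 MAF genes, where 14% of all genes were called in either direction.

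The proteasome genes, which NRF1 is known to induce, were mostly not called. Of 33 genes of the core and regulatory particle, 0 were called higher and 1 was called lower, where 13.2% of all genes were called, while 25 of 33 were fitted above 0 with a median of 0.06. The called gene was Psmc5, an ATPase of the regulatory particle base, at 109 to 147 CPM in WT and 97.2 to 107 CPM in RTF2-deficient MEFs, with no overlap, as at 5.97% of all tested genes. Psmc5 fell by 0.34 on the log2 scale (SE 0.067, edgeR adjusted p = 0.00648) and was still called with GC content and length corrected (-0.24, adjusted p = 0.0295). Next in adjusted p were Psma2 at 0.17, Psmd6 at 0.15 and Sem1 at 0.12, none of them called. Of 6 ubiquitin receptors and deubiquitinases of the proteasome 0 were called, with Usp14 at 0.22 (edgeR adjusted p = 0.185), Uchl5 at 0.26 (adjusted p = 0.268), Psmd2 at 0.13 (adjusted p = 0.341) and Psmd4 at -0.04 (adjusted p = 0.741). The promoter window of Psmc5 held no match to the element.

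**Figure D4:**
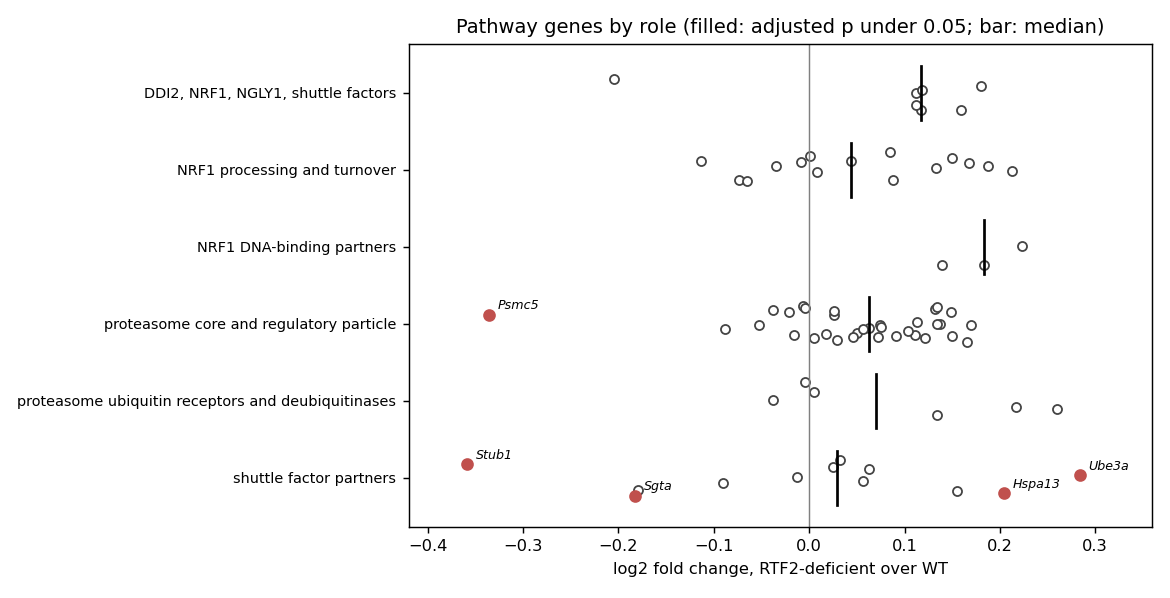
Log2 fold change of RTF2-deficient over WT MEFs across both lines (x axis) for each tested gene of 6 lists (y axis, with a vertical spread for legibility only), where bars give the list median and filled points an edgeR adjusted p under 0.05. The 5 filled genes are Psmc5, Stub1 and Sgta, which fell, and Ube3a and Hspa13, which rose, and none is one of the 7 members.

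Among 12 genes whose proteins work with shuttle factors, 2 were called higher and 2 lower, where 4.98% of all genes were called higher and 8.18% lower. Ube3a, a ubiquitin ligase that binds the proteasome, rose by 0.28 on the log2 scale (SE 0.067, edgeR adjusted p = 0.0164), at 82.2 to 102 CPM in WT and 104 to 130 CPM in RTF2-deficient MEFs, without overlap. Stub1, which encodes the chaperone-linked ligase CHIP, fell by 0.36 (SE 0.072, edgeR adjusted p = 0.00652), with WT at 105 to 139 CPM and RTF2-deficient MEFs at 81.6 to 107 CPM, overlapping. Sgta, a cochaperone of membrane protein targeting, fell by 0.18 (SE 0.047, edgeR adjusted p = 0.0239), also without overlap, at 91.9 to 103 CPM in WT and 79.7 to 89.6 CPM in RTF2-deficient MEFs. Hspa13, an HSP70 family member known to bind ubiquilins, rose by 0.20 (SE 0.056, edgeR adjusted p = 0.0332). With GC content and length corrected none of the 4 was called, at 0.13 for Ube3a, -0.17 for Stub1, 0.008 for Sgta and 0.17 for Hspa13 (edgeR adjusted p from 0.065 to 0.932). Xpc, another gene of this list, was then called higher (0.21, edgeR adjusted p = 0.0458). Stub1 and Ube3a were called without any 1 library, whereas Sgta was lost in 5 of the 12 such fits and Hspa13 in 9. With the interferon score as a term Ube3a was no longer called (0.24, edgeR adjusted p = 0.0533), and with the libraries of a group summed neither these 4 nor Psmc5 were (edgeR adjusted p from 0.139 to 0.271). Some cell type markers were also called between genotypes across both lines. Of tested markers, 2 of 10 fibroblast and 1 of 3 neural ones were lower, and 1 of 5 epithelial and 1 of 2 endothelial ones higher. Of leukocyte and muscle markers, 0 of 2 each were called. The part of these in the calls above was not tested.

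Correlations between members are given here as descriptions over 12 libraries that share lines and groups. Rad23b and Ubqln4 had a Pearson r of 0.91 on log2 CPM, Ubqln1 and Ubqln4 of 0.88, and Ngly1 and Ubqln1 of -0.75. Other pairs lay between these, as Ddi2 and Ubqln1 at 0.27 and Nfe2l1 and Ubqln2 at 0.09. Among 9280 genes with a mean over 10 CPM, those most like Ddi2 were Cep192 (r = 0.90), Rptor (0.89) and Ern1 (0.88). Those most like Nfe2l1 were Rusc2 (0.96), Unc5b (0.96) and Ccser2 (0.95), and those most like Ubqln2 were Vps13a (0.92), Pik3cb (0.92) and Terf2ip (0.91).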

How the data were processed

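RNA of 12 libraries, 3 for each genotype of each MEF line, was sequenced 72 hrs after Cre. The values deposited are counts per gene by Entrez number, without normalization. The methods name Salmon and tximport, and the submitters' processing notes HTSeq and mm10, so the counting tool, and whether strand was used, is unsettled. Of 24100 rows, 24045 matched RefSeq names. The 7 members and the pathway lists were chosen with earlier results of these data known.

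Counts were tested with edgeR 4.0.16 (R 4.3.3) by glmQLFit and glmQLFTest on TMM-scaled libraries after filterByExpr (14263 genes), with genotype and line as terms for the genotype effect and group means for the other comparisons. P-values were adjusted over all tested genes by the Benjamini-Hochberg method at 0.05, and CPM used a prior count of 2 on the log2 scale. Exact permutation tests were run on single members, and the fits were tested on simulated data. Named genes were the members, their family relatives (some results are not reported here), up to 4 genes per pathway list by lowest adjusted p for genotype, and the 3 genes most correlated with Ddi2, Nfe2l1 and Ubqln2. Alternatives were DESeq2 1.42.0, limma 3.58.1 (voom, with a random block for the group), other scalings and filters, summed libraries, each library left out, an interferon score as a term and, chosen after seeing the data, correction for GC content and length (98.0% of tested genes had a value), the sum of Ddi2 and Rsc1a1, the sign within same-numbered pairs of line 1, and the 9 libraries outside RTF2-deficient line 2. Libraries with the same number in different groups had correlated deviations from group means (18 pairs, r from -0.762 to 0.842, 12 over 0.1): all 3 pairs passed 0.1 for WT and RTF2-deficient line 1 and for the WT groups, but not with RTF2-deficient line 2, so the numbers were taken as pairs only in the former. Depth of 39360167 to 44695002 counts gave every member at least 733 counts per library.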

Additional observations from a re-analysis of the deposited data

Results flagged for a closer look

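In 60 sets of 6 libraries (members, pathway genes called or named, and totals, by genotype), 3 had a library far from the others by Dixon's test, where chance alone gives about 5%. None of the 3 is a member. Psmb6, a catalytic proteasome subunit gene, was highest among WT libraries in line 2 replicate 2, at 145 CPM with the nearest at 121 CPM. Sel1l was highest in WT line 1 replicate 1, at 225 CPM with the nearest at 187 CPM. The total count was lowest among RTF2-deficient libraries in line 2 replicate 2, at 39360167 with the nearest at 41877556.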

How the results depend on the processing

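The genotype effect was called for 1878 genes in the fit as designed, and for 3457 with voom and a random block for the group, 1227 without the line term and 0 with the libraries of a group summed (2737 at an unadjusted p under 0.05 by edgeR). Voom with the random block called 2 members, Ngly1 (-0.21, limma adjusted p = 0.0439) and Ubqln2 (0.12, limma adjusted p = 0.0480). The correlation estimated for this block was -0.148, and a value below 0 makes the errors of the genotype effect smaller. In line 1, 456 genes were called, against 861 with DESeq2, 732 with the interferon score as a term and 1093 in 9 libraries with the replicate block. The difference between lines was called for 184 genes, against 409 with DESeq2 and 341 with the score. Calls between WT lines were 1998 in all 12 libraries and 3788 with the block in 9 libraries. In line 1 and between WT lines, these comparisons mix the block with the change of libraries. The counts of the 9 libraries without the block are given above. Calls between RTF2-deficient lines went from 276 to 702 with DESeq2 and 1244 with the score. The replicate block in all 12 libraries gave 1646 genes for the genotype effect and changed no member's call. Leaving out 1 library at a time gave 1158 to 1974 genes for the genotype effect, 192 to 480 in line 1, 813 to 2372 in line 2, 66 to 164 for the difference between lines, 1260 to 2221 between WT lines and 119 to 400 between RTF2-deficient lines. Signs turned with GC content and length corrected for Ddi2 (-0.0157, in line 1 -0.0274 and in line 2 -0.00407), for Ubqln2 between WT lines (-0.0378) and for Sgta (0.00776), and with the score for Rad23b (-0.0607) and Ubqln4 (-0.000841) in line 2. The GC and length correction also turned the genotype effect of Usp15 (-0.0395), Psmb5 (0.160), Psmb6 (0.0288) and Psmd4 (0.0746), none of them called. Ngly1 in line 1 ran from -0.0781 to 0.0310 without 1 library. The cause of these changes was not tested. Of the values of single genes under alternatives, among which Usp15, Psmb5, Psmb6 and Psmd4 were not counted, 616 kept direction and side of the threshold, 10 passed it newly, 27 lost it and 8 turned sign.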
